A study of Drosophila melanogaster with 3 samples.

Results

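The 31 genes described here encode ligands, receptors, intracellular effectors and feedback inhibitors of the Wnt, Hedgehog and Dpp pathways of Drosophila melanogaster, 14 in the Wnt pathway, 4 in the Hedgehog pathway and 13 in the Dpp pathway. They are 31 of 18164 annotated genes and were listed by name. For each gene, all regions were taken whose summit lay inside the gene or within 5000 bp of it. This gave 39 of the 3319 regions in the authors' list filtered by irreproducible discovery rate (IDR), and no region served more than 1 of the 31 genes. The study mapped binding of Hey by ChIP-seq in 3 biological replicates of 1 group: mixed-sex whole embryos aged 6 to 24 h of a transgenic line carrying Hey with GFP at its C-terminus. No untagged or untreated group was among the region lists, and the lists come from whole embryos, so they do not say in which cells a region was bound. One label field calls each library an input control, while the assay title and the antibody field name a ChIP of Hey. The signal value ranks regions only within a list, and the read depth is unknown.

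Hey is a basic helix-loop-helix protein related to Hairy and Enhancer of split, a family of mostly repressing factors that prefers the E-box CACGTG and the class C site CACGCG. Wnt ligands such as wingless bind Frizzled receptors and the co-receptor arrow, which frees Armadillo, the fly beta-catenin, to act with the DNA-binding factor Pangolin. Hedgehog binds Patched, which then stops restraining Smoothened, and the signal reaches the factor Cubitus interruptus. Dpp and its relatives bind pairs of serine/threonine kinase receptors, which phosphorylate Mad. Mad then enters the nucleus with Medea, and in many cells with Schnurri shuts off the repressor brinker. All these pathways pattern the segments, the epidermis and the mesoderm of the embryo, and several of their target genes feed back to limit the signal.

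The sequences around the sites show what lay under some of the regions that the results turn on. They are 42 bases each, read from the RefSeq release 6 genome (dm6) on the plus strand, 5′ to 3′. Capitals mark the named site, with 18 bases on either side. The first 6 hold CACGTG and lie at chr2L:286861-286902 (smo), chrX:1897951-1897992 (arm), chrX:7306849-7306890 (brk), chr3R:17059940-17059981 (Dad), chrX:15612319-15612360 (sog) and chr3L:19202236-19202277 (fz2).
smo E-box: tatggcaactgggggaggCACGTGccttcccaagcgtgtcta
arm E-box: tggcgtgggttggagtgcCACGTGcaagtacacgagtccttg
brk E-box: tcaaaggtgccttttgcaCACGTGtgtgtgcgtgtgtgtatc
Dad E-box: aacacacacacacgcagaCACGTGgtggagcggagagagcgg
sog E-box: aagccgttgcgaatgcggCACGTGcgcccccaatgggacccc
fz2 E-box: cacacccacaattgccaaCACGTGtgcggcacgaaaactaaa
The next 3 hold CACGCG, here on the minus strand and so printed as CGCGTG, at chr3R:23139868-23139909 (hh), chr3L:19158550-19158591 (fz2, the higher region) and chr3L:19220313-19220354 (fz2, the lower region).
hh class C site: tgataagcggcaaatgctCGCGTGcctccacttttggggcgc
fz2 class C site, higher region: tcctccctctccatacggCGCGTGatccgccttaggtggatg
fz2 class C site, lower region: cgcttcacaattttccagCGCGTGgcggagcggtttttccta
The last 5 come from the highest printable regions with neither site. In 4 of them capitals mark GATAAG, the core bound by GATA factors, which recurred at these genes: chr3L:19040402-19040443 (nkd), chr2L:5233643-5233684 (tkv, minus strand, printed as CTTATC), chr3L:16026321-16026362 (Notum) and chr3R:23139234-23139275 (hh). The Medea region, chr3R:31616153-31616194, had no such site near its summit and is centred on it.
nkd GATA site: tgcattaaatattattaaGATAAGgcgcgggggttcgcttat
tkv GATA site: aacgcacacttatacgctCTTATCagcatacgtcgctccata
Notum GATA site: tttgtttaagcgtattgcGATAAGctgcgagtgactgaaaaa
hh GATA site: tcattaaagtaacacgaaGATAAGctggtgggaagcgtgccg
Med summit: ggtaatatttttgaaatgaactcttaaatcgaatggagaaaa

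Of the 31 genes, 18 had an IDR region (58.1%), against 30.0% of all annotated genes. Their 39 regions were mostly intronic and mostly lay in receptor, effector and feedback genes, while 8 of the 10 ligand genes had none. The 31 genes are long, with a median of 13.6 kb, and longer genes carry a summit more often. If each member had the share of all genes in its class of length, 13.5 of the 31 would have a region. The 3319 lowest regions of the pooled list also hit 15 of the 31 genes, against 13.1 at the shares of their length classes. By class, 4 of 4 members over 50 kb had an IDR region (58.6% of all genes of that length), as did 3 of 6 at 20 to 50 kb (55.4% of all), 4 of 7 at 10 to 20 kb (46.4%), 2 of 6 at 5 to 10 kb (37.7%), 4 of 6 at 2 to 5 kb (29.8%) and 1 of 2 under 2 kb (24.6%). Summits inside the gene body occurred in 13 members, against 7.89 at the class shares. Regions were also counted only for the gene with the nearest transcription start site (TSS), which gave 13 of 31 members, against 12.1% of all genes. This last share was not adjusted for gene length.

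**Figure D1:**
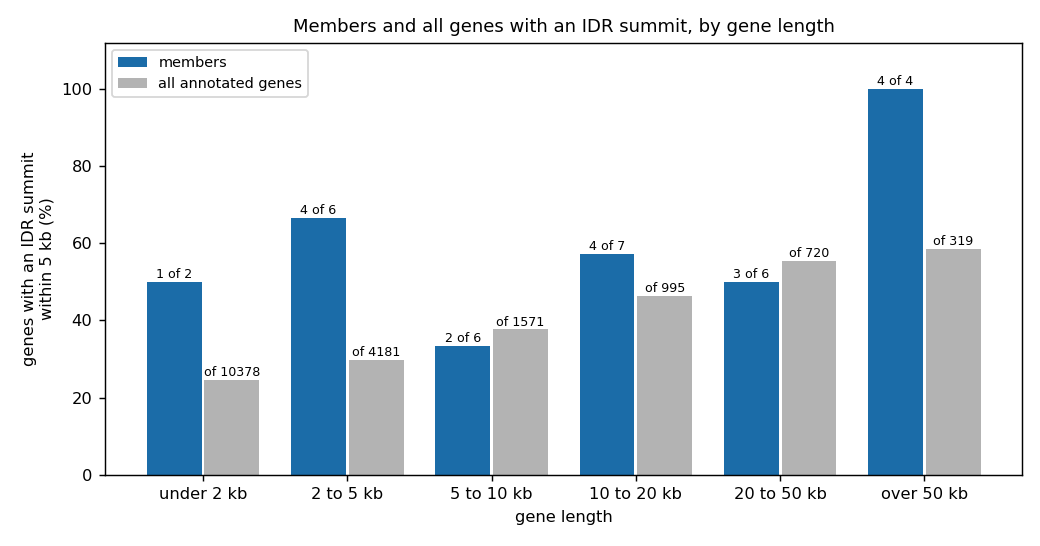
Share of genes (%, vertical axis) with an IDR summit inside or within 5000 bp, by class of gene length (horizontal axis), for the members (blue) and all annotated genes (grey), with the number of genes above each bar. The share of all genes grows with length, and each class holds at most 7 members.

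The pathways differed in how many of their genes carried regions. In the Wnt pathway 6 of 14 genes had an IDR region, close to the 6.59 that their lengths alone would give. In the Hedgehog pathway it was 3 of 4, against 1.60 at the class shares, and in the Dpp pathway 9 of 13, against 5.27. With summits inside the gene only, the Dpp count was 5, against 2.84 at the class shares. The Wnt count was then 6, against 4.25, and the Hedgehog count 2, against 0.799. In replicates 1, 2 and 3, the 3319 highest regions hit 7, 7 and 7 Wnt genes, 3, 3 and 4 Hedgehog genes and 9, 7 and 7 Dpp genes. The 3319 lowest regions of the same replicates hit 5, 7 and 7 Wnt genes, 2, 1 and 2 Hedgehog genes and 5, 5 and 6 Dpp genes. The highest regions therefore exceeded the lowest in every replicate for Hedgehog and Dpp genes, and in replicate 1 alone for Wnt genes. Over all genes the highest regions also exceeded the lowest in every replicate, with 32.4%, 28.5% and 30.2% of genes hit by the highest and 29.1%, 25.0% and 29.4% by the lowest in replicates 1, 2 and 3, so that direction is not particular to these pathways. Per 10 kb of gene and flanks, the Dpp genes held 0.672 IDR regions, the Hedgehog genes 0.601 and the Wnt genes 0.181, against 0.248 over the whole chromosome arms. The gene shn held 12 of the 24 Dpp regions, and without it the Dpp genes held 0.415 per 10 kb, below the Hedgehog genes. The order was another among the 61 other genes of the pathways, described below. There the Wnt genes held 0.470 regions per 10 kb, the Dpp genes 0.330 and the Hedgehog genes 0.300. Differences between pathways have no test here, because genes are not replicates.

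By role, the ligands stood at the low end, with regions at 0 of 6 Wnt, 1 of 1 Hedgehog and 1 of 3 Dpp ligand genes. Of the Wnt ligand genes, Wnt4, wg, Wnt6 and Wnt10 lie in 1 span of 132 kb, described below. Only gbb and hh among 10 ligand genes had an IDR region, against 4.05 at the class shares, and the highest regions hit 4, 3 and 2 ligand genes in replicates 1, 2 and 3, while the lowest hit 0, 4 and 5. Receptors had regions at 7 of 8 genes (3.75 at the class shares), with 7, 6 and 7 genes hit by the highest regions and 6, 5 and 5 by the lowest. Effectors had them at 4 of 6 genes (2.66 at the class shares), with 3, 4 and 6 hit by the highest regions and 2, 1 and 2 by the lowest. Feedback genes and inhibitors had them at 5 of 6 genes (2.71 at the class shares), with 5, 4 and 3 hit by the highest regions and 3, 3 and 3 by the lowest. Across replicates the counts from the highest and the lowest regions overlapped for ligands, touched at 6 for receptors and at 3 for inhibitors. For effectors they stood apart, but the 6 of replicate 3 include pan and ci, which had a region in that replicate only. Over all genes, too, the highest regions hit more genes than the lowest in every replicate. Counting each region only for the gene with the nearest TSS left 1 of 10 ligands and 4 of 8 receptors, against 12.1% of all genes. The upper 50% of the IDR list left 3 of 6 inhibitor genes, against 19.1% of all genes. Neither share of all genes was adjusted for gene length. The metalloprotease gene tld, which releases Dpp by cleaving Sog, had no IDR region.

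**Figure D2:**
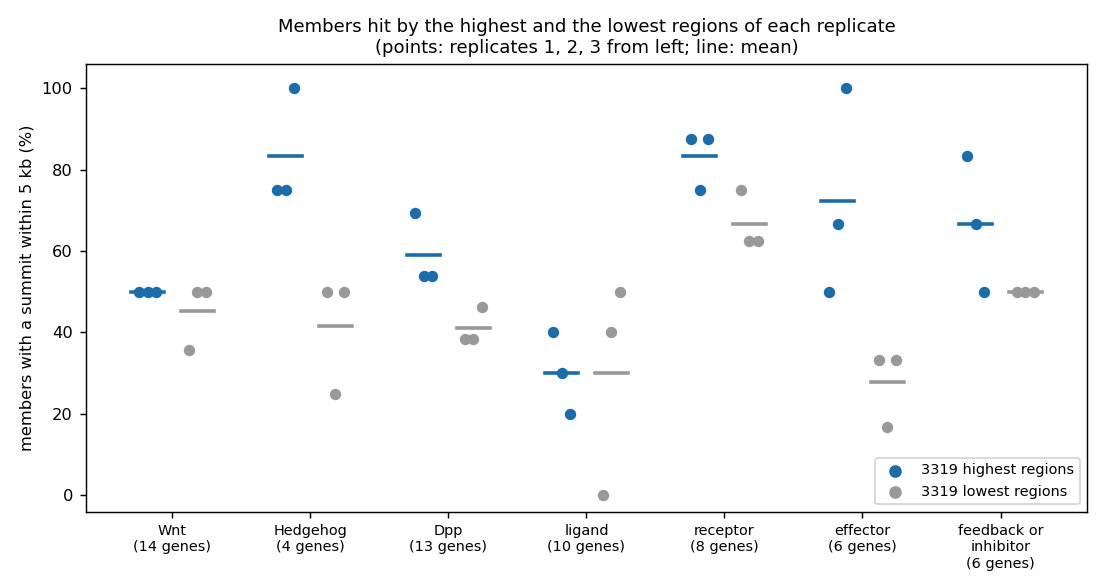
Share of the members of each pathway and role (%, vertical axis) with a summit within 5000 bp among the 3319 highest (blue) and the 3319 lowest (grey) regions of each replicate. Points are replicates 1, 2 and 3 from left to right and lines are means; the lowest regions hit 5, 7 and 7 of 14 Wnt genes, close to the highest.

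The 6 Wnt ligand genes had no IDR region. wg, the founding Wnt gene, had its highest pooled region at rank 10131 of 30000, and Wnt2 at rank 17411. Wnt5, a ligand in axon guidance, was at rank 11122 in the pooled list, although a region ranked 2123 in replicate 1. Wnt4 came nearest, at pooled rank 3676 and at ranks 3268, 3278 and 8136 in replicates 1, 2 and 3. Wnt4, wg, Wnt6 and Wnt10 are neighbours, and the span of 132 kb that covers them and their flanks, chr2L:7250419-7382528, held 39 pooled regions but none among the 3319 highest pooled regions. The highest regions of replicates 1, 2 and 3 placed 1, 1 and 0 summits in the span, and the lowest placed 0, 6 and 9.

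The Wnt receptors had more regions than any other Wnt role, but over long genes. Per 10 kb they held 0.282, against 0.214 at the Wnt feedback genes, 0.135 at the Wnt effectors and 0.248 over whole arms. fz2, one of the Wingless receptors, held 4 regions in its 94.4 kb, the highest at rank 856 with a signal value of 253 and the CACGCG printed above at its summit. This region ranked 770, 1026 and 1268 in replicates 1, 2 and 3, and so lay among the highest in each. The other fz2 regions had signal values of 216, 119 and 118, the last with the printed CACGTG, and none of them was among the highest of all 3 replicates. fz, the receptor shared by Wingless and planar polarity signalling, had regions at ranks 909 and 1680 (signal 244 and 172), of which the higher ranked 1487, 637 and 1072 in the replicates. Its summits lay 29688 and 91998 bp into the gene, with TSSs of lncRNA:CR45025 and CG13481 nearer than that of fz. arr, the co-receptor, had 1 region at rank 3079 with a CACGCG, ranked 10278, 2210 and 2152, so that replicate 1 did not place it among its highest. Among genes over 50 kb the median number of IDR regions was 1, and 50 of 319 such genes had at least the 4 of fz2.

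Downstream of the Wnt receptors, arm, which encodes beta-catenin, had 1 region at rank 1567 (signal 178), in an intron 1592 bp from its nearest TSS and with the printed CACGTG 37 bp from the summit. Replicates 2 and 3 ranked it 1495 and 1046, but replicate 1 ranked it 4521. pan, the TCF factor of the pathway, had no region in the pooled list or in replicates 1 and 2, and 1 at rank 1762 in replicate 3. pan lies on chromosome 4, which held 7 IDR regions in all, and 15, 86 and 153 of the 30000 regions of replicates 1, 2 and 3.

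The feedback genes nkd and Notum carried the highest Wnt regions. nkd encodes an intracellular inhibitor induced by Wingless, and its region at rank 455 (signal 344) lay in an intron, 5067 bp downstream of the TSS, at ranks 240, 691 and 1539 in replicates 1, 2 and 3. Notum encodes a secreted enzyme that removes the lipid of Wnt proteins, and its intronic region at rank 663 (signal 288) had replicate ranks of 717, 579 and 1704. Both regions had a GATAAG near the summit and neither had CACGTG or CACGCG. Axn, the scaffold of the complex that degrades beta-catenin, had no IDR region and 1 pooled region, at rank 16433. All 10 Wnt regions lay in an intron of the Wnt gene, and 5 of them held CACGTG or CACGCG within 100 bp of the summit.

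In the Hedgehog pathway, hh, the ligand, had a pair of regions in its first 3 kb. The region at rank 668 (signal 286), 2676 bp downstream of the TSS, ranked 644, 940 and 548 in replicates 1, 2 and 3. The region at rank 695 (signal 280.4), 2027 bp downstream and with the printed class C site 7 bp from its summit, ranked 138, 9429 and 4179, and so was high in replicate 1 only. ptc, the receptor and itself a known target of the pathway, had an intronic region at rank 785 (signal 265), 4752 bp from its TSS, with a GATAAG and a CTTTGAT. A region at rank 918 (signal 243) lay downstream of ptc in an intron of Acsl, a fatty acyl-CoA ligase gene. Replicate ranks were 1247, 666 and 1314 for the intronic region and 1208, 1321 and 772 for the downstream one, so both were high throughout.

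smo, the signal transducer restrained by Patched, had the highest Hedgehog region, at rank 350 with a signal value of 389 and replicate ranks of 392, 484 and 322. It lay 9268 bp downstream of the smo TSS and 319 bp from the TSS of CG3625, in a non-coding exon, with the printed CACGTG 29 bp from the summit. ci, the transcription factor of the pathway, lies on chromosome 4 like pan and had a region only in replicate 3, at rank 2933. The sparse listing of chromosome 4 moved with the absence of both genes from the IDR list, and its part in that absence was not tested.

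Among Dpp ligands, the highest region of all 39 was assigned to gbb, a BMP ligand gene, at rank 33 with a signal value of 950.0 and ranks of 29, 45 and 99 in replicates 1, 2 and 3. Its summit lay 1155 bp upstream of gbb and 77 bp from the TSS of asRNA:CR45928. The summit fell in a non-coding exon, within the span of the gene ytr. It held a CACNAG and a GATAAG, but no CACGTG or CACGCG. dpp itself had no IDR region. Its highest pooled region ranked 4025, and its highest regions in replicates 1, 2 and 3 ranked 6673, 4686 and 5881, outside the 3319 highest of each. scw, a BMP ligand gene of the early embryo, was at pooled rank 14617.

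Of the Dpp receptors, sax, a type I receptor, was next to gbb in rank, at 83 with a signal value of 710.3 and replicate ranks of 58, 143 and 170. The summit lay 8455 bp from the nearest sax TSS in the 3′ UTR of puml, close inside the 5000 bp limit, and held a CACGCG and a CAAGTG. In replicate 2 the summit of the same region fell just beyond that limit. tkv, the type I receptor for Dpp, had an intronic region at rank 605 (signal 299), ranked 257 and 613 in replicates 1 and 2 but 8222 in replicate 3. put, the type II receptor, had no IDR region and a pooled rank of 15671.

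The Dpp effectors were the most densely covered group, with 14 IDR regions over 3 genes, or 1.32 per 10 kb. That place rested on shn, with 1.76 per 10 kb. Med held 0.698 and Mad 0.424, both below the 0.878 of the Dpp inhibitor genes. Mad, the Smad that receptors phosphorylate, had 1 intronic region 690 bp upstream of its nearest TSS, at rank 902 (signal 245) and replicate ranks of 1987, 630 and 773. Medea, the partner Smad (Med), had 1 at rank 601 (signal 299) with replicate ranks of 182, 2328 and 2643. That summit lay 13 bp from the TSS of Mnat9 and 5127 bp from that of Med.

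shn, which encodes the zinc-finger protein Schnurri, held the other 12 regions. Only 4 annotated genes had as many IDR regions, shn included, and among 319 genes over 50 kb only 3. The highest shn region, at rank 532 (signal 319), lay 183 bp upstream of an internal shn TSS at chr2R:11173538-11173751 and was the only region of all 39 within 500 bp of a TSS of its own gene. It ranked 151, 2062 and 1285 in replicates 1, 2 and 3. Those at ranks 793 and 1302 were also among the highest of every replicate, and the other 9 were not. The 12 signal values ran down to 116, at rank 3270, and 1 region, 970 bp from a TSS, held a CACGCG while none held a CACGTG. The 3319 highest regions of replicates 1, 2 and 3 placed 11, 10 and 9 summits at shn, and the lowest placed 4, 3 and 2. With shn left out, the members held 0.292 IDR regions per 10 kb, against 0.393 with it and 0.248 over whole arms.

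All 3 Dpp inhibitor genes had regions. Dad, the inhibitory Smad induced by Dpp, had 3 intronic regions at ranks 784, 981 and 2889 (signal 265, 234 and 126). The first ranked 747, 917 and 943 in replicates 1, 2 and 3 and the next 1480, 1436 and 1392. Both held TGGCGCC, the core searched for Brinker, and no other of the 39 regions had a match to it within 100 bp of its summit. The lowest, with the printed CACGTG 4 bp from its summit, ranked 2036, 4174 and 21299. brk, the repressor of Dpp targets, had 1 region 1145 bp upstream at rank 2581 (signal 134), with CACGTG 73 bp from the summit and replicate ranks of 1432, 3425 and 13464. sog, the Chordin relative that binds Dpp in the dorsal embryo, had 3 intronic regions at ranks 2442, 3006 and 3181 (signal 139, 123 and 118). Each sog region was among the highest of replicate 1 only, and the brk region likewise.

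**Figure D3:**
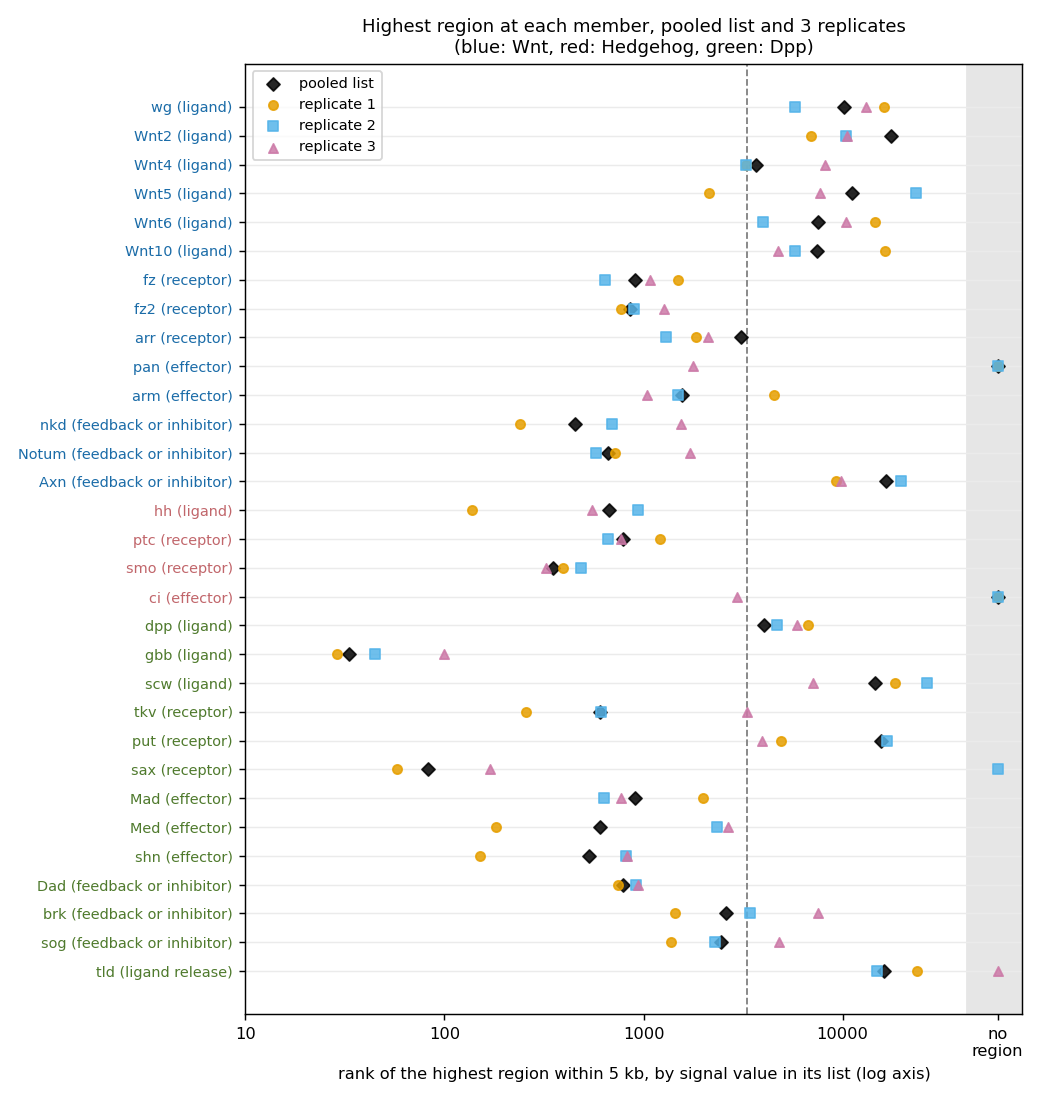
Rank of the highest region at each member (horizontal log axis, best rank at left) in the pooled list and in replicates 1, 2 and 3, with members and their roles down the page. The dashed line marks rank 3319, and the grey band holds members with no region in a list, as pan and ci in the pooled list and in replicates 1 and 2.

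**Figure D4:**
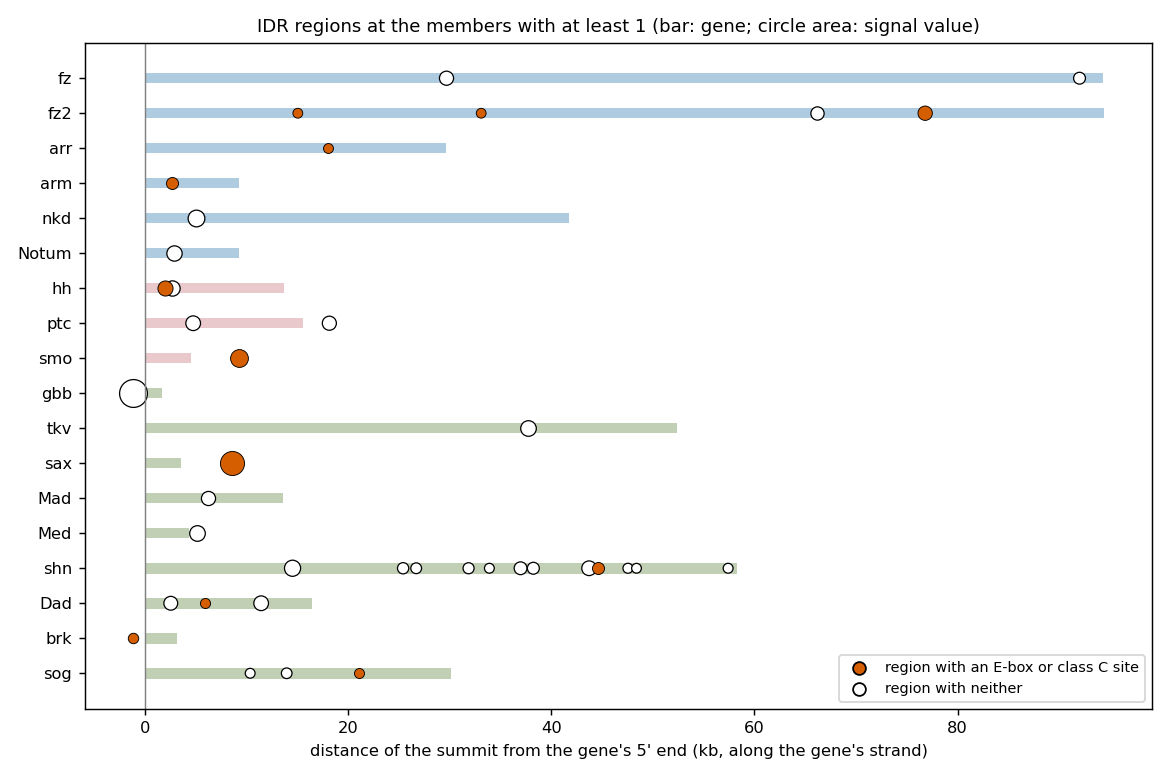
Summits of the 39 IDR regions along the 18 members that have one, as distance from the 5′ end of the gene (kb, horizontal axis), with genes as bars, the signal value as circle area, and regions with an E-box (CACGTG) or class C site (CACGCG) filled. The 12 circles of shn, 1 of them filled, and the large circles of gbb and sax outside their genes stand out.

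Around the IDR threshold, the last members inside were shn at rank 3270 (signal 116), fz2 at 3191 (118) and sog at 3181 (118). The first outside were shn at rank 3397 (signal 113), arr at 3622 (109) and Wnt4 at 3676 (108). Ranks of all member regions were spread over the list, with a median signal value of 200.5 at the 39 regions and of 173 at the other 3280, and median ranks of 1302 and 1663.5.

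The member regions lay away from promoters. In an intron of the member itself lay 32 of the 39 summits, 4 lay downstream of the gene, 2 upstream and 1 in the 3′ UTR of shn. Only 4 of 39 (10.3%, 95% Wilson interval 4.06 to 23.6) were within 500 bp of any TSS, against 37.5% (35.8 to 39.1) of the other IDR regions. These 4 were the shn region and those at asRNA:CR45928, CG3625 and Mnat9. Some summits inside a member were also nearer to the TSS of another gene. It was Ns1 for the highest Dad region, lncRNA:CR44281 for the intronic ptc region and CG43192 for the arr region. For the fz2 regions at ranks 3129 and 3191 it was lncRNA:CR43893 and lncRNA:CR45941, and for the shn region in the 3′ UTR it was CG9084. Among the 3319 highest regions of replicates 1, 2 and 3, the share within 500 bp of a TSS was 29.2%, 20.0% and 25.0% at the members, and 45.8%, 33.2% and 36.7% at the rest. Members averaged 24.7% ± 4.59 and the rest 38.6% ± 6.48 (SD, n = 3), lower at members in 3 of 3 replicates by 13.9 percentage points (two-sided exact permutation test, unpaired, p = 0.1, below which 3 values against 3 cannot go). The member regions of a replicate numbered 48, 40 and 40. The part of gene length in this difference was not tested.

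CACGTG and CACGCG were about as frequent at the member regions as elsewhere in the IDR list. At least 1 of them lay within 100 bp of 12 of 39 summits (30.8%, 95% Wilson interval 18.6 to 46.4), against 29.9% of the others (28.4 to 31.5) and 29.9% of all 3319 regions. CACGTG was at 6 member regions (15.4%, against 17.2% of the others) and CACGCG at 6 (15.4%, against 15.0%). Which share was higher depended on the window, as within 200 bp CACGTG was at 23.1% of member regions and 20.8% of the others, and CACGCG at 15.4% and 22.3%. In windows 400 to 600 bp away, CACGTG was found in 1.28% of member flanks and 2.41% of the others. By pathway, 5 of 10 Wnt regions (23.7 to 76.3%), 2 of 5 Hedgehog regions (11.8 to 76.9%) and 5 of 24 Dpp regions (9.24 to 40.5%) held at least 1 of the sites, with overlapping intervals. Over the highest regions of replicates 1, 2 and 3 the shares were 20.8%, 20.0% and 17.5% at members, against 24.5%, 27.2% and 29.1% at the rest. Members averaged 19.4% ± 1.73 and the rest 26.9% ± 2.30 (SD, n = 3), lower at members in 3 of 3 by 7.50 percentage points (two-sided exact permutation test, unpaired, p = 0.1, again the lowest possible). The lower share did not appear in the IDR list.

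Among 9 other short sites searched on both strands within 100 bp of the summit, GATAAG stood out in size. It was at 15 of 39 member regions (38.5%, 95% Wilson interval 24.9 to 54.1), against 19.7% of the others (18.4 to 21.1) and 19.9% of all IDR regions. The members holding it were gbb, nkd, shn, tkv, Notum, hh, ptc, fz2 and sog. In introns more than 500 bp from a TSS the shares were 36.4% (22.2 to 53.4) at members and 23.3% (21.0 to 25.7) at the others, with overlapping intervals, and without shn 37.0% at members (21.5 to 55.8). In the flanks they were 14.1% and 11.3%. In replicates 1, 2 and 3, GATAAG was at 35.4%, 30.0% and 27.5% of member regions, against 24.3%, 15.8% and 16.7% of the rest, a mean of 30.97% ± 4.05 against 18.9% ± 4.67 (SD, n = 3), higher in 3 of 3. For GATAAG and for GAGAGAG, the comparisons within introns, in flanks, without shn and by replicate were chosen after the shares were seen and have no test.

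GAGAGAG, the element bound by GAGA factor, was at 15.4% of member regions (7.25 to 29.7) and 6.25% of the others (5.47 to 7.13, and 6.36% of all). The intervals overlapped in introns more than 500 bp from a TSS, with 15.2% (6.65 to 30.9) at members and 6.51% (5.27 to 8.01) at the others, and also without shn, with 14.8% (5.92 to 32.5) at members. By replicate it averaged 13.75% ± 4.51 at members and 6.36% ± 1.88 at the rest (SD, n = 3), higher in 3 of 3. CAAGTG was at 25.6% of member regions (14.6 to 41.1), against 17.3% of the others and 17.4% of all, CACNAG at 20.5% against 26.8% (26.8% of all), and CAGCTG at 7.69% against 9.85% (9.82% of all). No 6-base match counts for more than 1 of these sites. The sites searched for the pathways' own factors were at few member regions within 100 bp of the summit. GCCGNCGC, searched for Mad, was at 1 member region, the highest of Dad (3.77% of all IDR regions). CTTTGAT, searched for Pangolin, was at 1, the intronic one of ptc (2.83% of all). TGGCGCC was at 2 member regions (5.13%, 95% Wilson interval 1.42 to 16.9), against 2.01% of the others (2.05% of all). That share depended on the window, with 0% at members and 1.22% at the others within 50 bp of the summit, and 15.4% and 3.63% within 200 bp. TGGGTGGTC, searched for Cubitus interruptus, was at 0 of 39 (95% Wilson interval up to 8.97%) and at 0.211% of all regions.

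**Figure D5:**
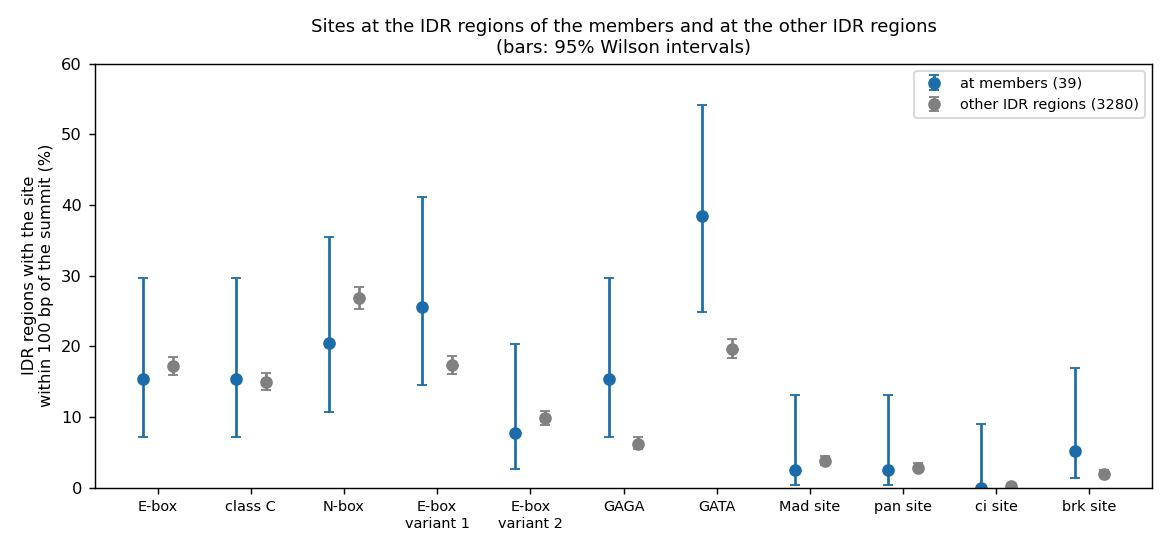
Share of IDR regions (%, vertical axis) with each site within 100 bp of the summit at the 39 member regions (blue) and the 3280 other regions (grey), with 95% Wilson intervals that cover counting error only. N-box stands for CACNAG, and the E-box variants are CAAGTG and CAGCTG, in that order. The intervals of the E-box and class C sites overlap, those of the GATA site do not, and those of the GAGA site are separate only by the gap between 7.25% and 7.13%.

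Of the 39 regions, 17 (43.6%, 95% Wilson interval 29.3 to 59.0) had a summit within 100 bp of one among the 3319 highest of all 3 replicates, against 36.4% of the others (34.8 to 38.1). Found in 2 replicates were 8 (20.5%, 10.8 to 35.5), against 37.0% of the others (35.3 to 38.6), in 1 replicate 12 (30.8%, against 24.2%) and in none 2 (5.13%, against 2.41%). The share in 2 replicates was lower at the members, with intervals that overlapped only between 35.3 and 35.5%. The intervals for all 3 replicates overlapped as well. By gene, 13 of 31 members had a region found in all 3, against 14.6% of all genes. With a reciprocal overlap of 50% in place of summit distance it was 6 of 31, against 9.83% of all genes. Neither share of all genes was adjusted for gene length. The 5 members with an IDR region but none found in all 3 were tkv, arm, arr, brk and sog. In replicates 1, 2 and 3, 19, 17 and 18 of the 31 members were hit by the highest regions, and 12, 13 and 15 by the lowest. Members were thus hit more often by the highest regions, on average 18 ± 1.00, than by the lowest, 13.3 ± 1.53 (SD, n = 3), with no overlap between replicates. Within 1000 bp of the gene this difference was 2.67 members in place of 4.67. The lowest regions also hit members more often than all genes, of which they hit 29.1%, 25.0% and 29.4% in replicates 1, 2 and 3. The highest hit 32.4%, 28.5% and 30.2% of all genes. Over all genes, too, the highest regions thus exceeded the lowest in every replicate, so that direction is not particular to the members.

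Other genes of the pathways had an IDR region at 29 of 61 (47.5%), against 24.2 at the shares of their length classes and the 30.0% of all genes. With summits inside the gene only, it was 10 of 61, below the 12.3 at the class shares and against 7.85% of all genes. An IDR region within 5000 bp lay at 13 of the 24 Wnt genes (54.2%), 5 of the 12 Hedgehog genes (41.7%) and 11 of the 25 Dpp genes (44%). The low place of the Wnt pathway among the members did not recur here. In the Wnt pathway the highest were at dlp, a glypican (signal 574), slp2, a forkhead target gene (556), Apc (552) and sgg (465), both of the complex that degrades beta-catenin, and Drl-2, a receptor of the Ryk family (297). The Hedgehog genes were led by the target kn (807) and the kinase gene Gprk2 (663), followed by ihog, a co-receptor (167), rdx, a regulator of Ci breakdown (161), and boi, the relative of ihog (128). The Dpp genes were led by the coactivator nej (363), the target salm (338), the Activin-type ligand gene daw (307), its receptor gene babo (292) and the modulator gene cv (256). As with gbb, sax and Med, several of these summits were nearer to another gene, spg at Apc and PNPase at Gprk2 among them. A region found in all 3 replicates lay at 17 of the 61 genes, against 14.6% of all genes, a share not adjusted for gene length. In replicates 1, 2 and 3, 27, 25 and 26 of them were hit by the highest regions and 24, 29 and 24 by the lowest, with overlapping counts, and the lowest pooled regions hit 26, against 22.0 at the class shares.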

How the data were processed

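Per the labels, Hey was profiled by ChIP-seq in 3 biological replicates and the assembly was dm6. Per the deposited file listings, each replicate list was called from that replicate's alignment with a control, the pooled list from all 3, and the IDR list from these 4. Not given in the sources used here were aligner, caller and IDR threshold. The deposited signal value, of unstated scale, was used for ranking within a list. The deposited −log10 q-value has 1 ceiling value over all IDR regions and was not used. The summit offset is the authors'.

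Genes came from Ensembl 115 (BDGP6.54), without transposable elements, and all 31 members matched by symbol. N is 3319, the number of IDR regions, which are the N highest pooled regions. Support means a summit within 100 bp. Sites were searched within 100 bp of summits on both strands. Shares over 3 replicates were compared by exact permutation. The member and rest shares of a replicate come from the same list, and the main tests leave out this pairing. Exact sign-flip tests that keep it are given below. Wilson intervals cover counting error. The counts at the shares of length classes were added after the data were seen. The summit counts equalled those of bedtools 2.31.1 for 18164 genes. The text names all members, other genes nearest their regions, and the 5 highest other genes per pathway. The members, roles and gene lists were chosen with earlier results of these data known. Python 3.11.15, pandas 2.3.3 and SciPy 1.17.1 were used.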

Additional observations from a re-analysis of the deposited data

How the results depend on the processing

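The number of members with an IDR region was 18 (30.0% of all genes), 13 inside the gene (7.85% of all), 14 within 1000 bp (15.4%), 20 within 10 kb (43.3%), 13 by the nearest TSS (12.1%) and 15 in the upper 50% of the IDR list (19.1%), so the share of all genes moved more than the count. Summits inside the gene left 5 Dpp genes of 9 (2.84 at the shares of their length classes) and 1 ligand gene of 2 (2.10). The ligand count was also 1 within 1000 bp and with the nearest TSS, which left 4 receptors of 7. In the upper 50%, 3 inhibitor genes of 5 were left. The other pathway genes, 29, numbered 10 inside the gene, 16 within 1000 bp, 16 with the nearest TSS and 18 in the upper 50%. Members with a region found in every replicate fell to 6 at a reciprocal overlap of 50%, against 13 by summit distance. Widths differ between lists, and the cause was not tested. Leaving out replicates gave 13 to 15. The highest regions exceeded the lowest by 4.67 members, by 2.67 within 1000 bp, and by 3.50 to 5.50 with a replicate left out. The difference in CACGTG or CACGCG share lay between -9.40 and -5.44 points with a replicate left out, and that in TSS share between -14.9 and -12.5, where 2 values against 2 have no smaller p than 0.333. With a replicate block (exact sign-flip test, p = 0.25, the smallest possible) the differences were -7.50 and -13.9. The replicate differences in site share, TSS share and members hit kept their direction. Site shares in the IDR list did not all do so against the other regions: CACGTG went above them within 200 bp (23.1% against 20.8%) and without shn (22.2% against 17.2%), CACGCG below them within 200 bp (15.4% against 22.3%), and TGGCGCC below them within 50 bp (0% against 1.22%), where GCCGNCGC (2.56% against 2.10%) and CTTTGAT (2.56% against 1.62%) went above them. Without shn, chosen after the data were seen, the Dpp genes held 0.415 regions per 10 kb in place of 0.672. Ranking by the p-value column could not be run, since it holds no values. With the depth unknown, a gene outside the IDR list is not shown to lack binding.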
